A study of Mus musculus with 15 samples.

Results

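Vascular tone is set in part by receptors that make smooth muscle contract, and 10 genes of this system were measured: *Edn1*, *Ece1*, *Ednra*, *Ednrb*, *Adra1a*, *Adra1b*, *Adra1d*, *Avpr1a*, *Htr2a* and *Htr2b*. They were picked by gene symbol from the 24982 gene symbols in the count data. The RNA-Seq covered whole aortas from 15 male C57BL/6 mice (C57BL/6J in the methods of the study) aged 10 months, with 1 library per aorta and 5 mice in each of 3 groups. Control mice had a sham operation, a second group was orchiectomized, and the other group was orchiectomized and carried a pellet of dihydrotestosterone (DHT), an androgen. All 3 groups then shared the same regimen, named Aldo-salt, which began after 2 weeks of recovery and lasted 7 days. It consisted of aldosterone at 200 µg/kg per day from an osmotic minipump, with 0.9% NaCl and 0.2% KCl to drink. No group without Aldo-salt was sequenced, so the data compare androgen states within Aldo-salt and do not measure its effect.

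Endothelin-1, the product of *Edn1*, is made mainly by endothelial cells as an inactive precursor that the membrane protease encoded by *Ece1* cuts to the active peptide. The peptide acts on the type A receptor (*Ednra*), which makes smooth muscle contract, and on the type B receptor (*Ednrb*), which on endothelial cells leads to relaxation and clearance of the peptide. Noradrenaline from sympathetic nerves contracts arteries through the α1-adrenergic receptors A, B and D (*Adra1a*, *Adra1b* and *Adra1d*), of which the D subtype is known as the main one in the mouse aorta. Vasopressin acts on arteries through *Avpr1a* and serotonin through *Htr2a*, while *Htr2b* encodes a related serotonin receptor. All of these receptors can couple to Gq, a G protein that raises intracellular calcium through phospholipase C.

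The bases that precede *Edn1* and *Ece1* in the genome are shown because these were the members whose groups separated most clearly. In the GENCODE annotation of GRCm38, the protein-coding genes *Edn1* and *Ece1* span chr13:42301476-42307990 and chr4:137862237-137965229, and *Adra1a* spans chr14:66635251-66771168, all on the plus strand. RefSeq promoter windows were matched for 8 of the 10 genes, without *Adra1a* and *Adra1d*, and the 250 bases before each transcription start were searched. The *Edn1* window is chr13:42301226-42301475 and the window of the most upstream *Ece1* start is chr4:137861987-137862236, both on the plus strand of GRCm38.p6 and outside the annotated transcript.
Edn1: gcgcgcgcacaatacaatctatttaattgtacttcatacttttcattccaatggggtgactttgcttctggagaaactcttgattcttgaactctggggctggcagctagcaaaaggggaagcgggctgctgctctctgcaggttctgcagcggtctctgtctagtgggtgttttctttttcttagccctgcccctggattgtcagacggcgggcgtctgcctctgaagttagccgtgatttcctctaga
Ece1: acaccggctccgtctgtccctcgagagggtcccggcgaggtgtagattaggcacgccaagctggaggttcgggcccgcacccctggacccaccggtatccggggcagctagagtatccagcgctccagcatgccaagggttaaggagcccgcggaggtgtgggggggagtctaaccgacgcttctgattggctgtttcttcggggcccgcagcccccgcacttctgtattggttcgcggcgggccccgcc
Letter patterns of 3 kinds were searched on both strands, namely AGAACA, the core hexamer of the androgen response element, TGANTCA, which is the AP-1 site, and the CArG box of serum response factor. AGAACA occurs in 16.1% of the 32851 RefSeq promoter windows of this length, TGANTCA in 6.75% and the CArG box in 1.47%. None of the patterns occurs in the sequences shown. AGAACA was found 115 to 110 bases before the start of *Ednrb*, 168 to 163 bases before *Htr2a*, 184 to 179 bases before *Htr2b* and 104 to 99 bases before start 4 of *Ece1*. TGANTCA was found 198 to 192 bases before start 1 of *Adra1b* and 163 to 157 bases before *Htr2b*. These matches describe letters in the windows only.

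The libraries held 8268957 to 13816864 reads in genes, and 10 reads in a library of median depth correspond to 0.906 CPM (read counts scaled to library size, with factors from the trimmed mean of M values). The tissue label was met by its markers, since 7 of 7 smooth muscle genes and 8 of 8 endothelial genes were detected in all groups, with summed levels of 10553 to 25033 CPM and 681 to 1458 CPM. Orchiectomized replicate 2 stood apart: its summed cardiac muscle markers reached 5529 CPM, against 41.0 to 1020 CPM in the other 14 libraries, and its mesothelial markers reached 374 CPM, against 8.33 to 92.0 CPM. This library also had the lowest smooth muscle marker level, 10553 CPM. Values without it are given beside the differences of members that it turned or moved most. In whole aorta, fewer cells of a type and less RNA per cell cannot be told apart.

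Expressed per kilobase of exon, so that genes can be compared, *Ece1* had the highest mean level of the 10 genes in control aortas, 39.7 CPM per kb. *Adra1d* followed with 29.2 CPM per kb and *Edn1* with 14.99 CPM per kb. *Ednrb* was at 6.05, *Adra1a* at 4.67, *Ednra* at 2.38, *Avpr1a* at 2.37, *Adra1b* at 1.66, *Htr2a* at 1.45 and *Htr2b* at 0.657 CPM per kb. In this order the control ranges of neighbors overlapped except between *Edn1* and *Ednrb*. The top pair changed order with DHT, where *Adra1d* had a mean of 43.3 CPM per kb and *Ece1* one of 31.5 CPM per kb, with ranges that overlapped. *Edn1* remained in the third place in all 3 groups, at 13.4 CPM per kb in orchiectomized mice and 5.96 CPM per kb with DHT.

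*Edn1* was the member with the clearest difference, with a lower level in mice given DHT. In control aortas, *Edn1* was measured at 20.1, 33.2, 33.5, 48.3 and 25.3 CPM. The orchiectomized aortas had 26.2, 34.1, 21.4, 26.8 and 35.2 CPM, and the aortas of orchiectomized mice given DHT had 14.2, 17.3, 9.49, 12.3 and 10.4 CPM. All 5 values with DHT lay below every value of the other groups, while control and orchiectomized mice overlapped. The means were 32.1 ± 10.7 CPM in control, 28.7 ± 5.80 CPM in orchiectomized and 12.8 ± 3.12 CPM in DHT-treated mice (SD, n = 5).

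*Edn1* fell with DHT compared with untreated orchiectomized mice, with a log2 fold change of -1.17 (SE 0.23) and an adjusted P of 0.0156 by the quasi-likelihood test of edgeR with Benjamini-Hochberg adjustment over 14121 genes. It was the 1 member called in this comparison, at an adjusted P under 0.05, where 4.72% of all tested genes were called and 3.80% were called lower. Compared with control mice, *Edn1* was also lower with DHT, with a log2 fold change of -1.33 (SE 0.23) and an adjusted P of 0.0318 by the same test. It was again the 1 member called, against 0.262% of all genes in either direction and 0.149% lower. Both comparisons use the same 5 DHT-treated aortas, so they are not independent. The call against control mice was lost with the replicate number as a block, at an edgeR adjusted P of 0.0726. It was also lost in 9 of 15 fits that each left out 1 library, namely those without control replicate 2, 3, 4 or 5, orchiectomized replicate 4, or DHT-treated replicate 1, 3, 4 or 5. Across the 15 fits the log2 fold change ranged from -1.46 to -1.13 and the edgeR adjusted P from 0.0166 to 0.0945. Against untreated orchiectomized mice the call held in all 15 such fits, with adjusted P values from 0.0117 to 0.0476. Orchiectomy alone gave *Edn1* a log2 difference of -0.16 (SE 0.22, edgeR adjusted P = 0.806), which was -0.29 without control replicate 1 and turned to 0.037 when control replicate 4 was left out.

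*Ece1* was the other gene whose DHT-treated and untreated orchiectomized groups did not overlap, although it did not pass the threshold. Control aortas had 170, 211, 226, 240 and 205 CPM, and orchiectomized aortas had 196, 224, 226, 188 and 203 CPM. With DHT the values were 184, 175, 134, 187 and 154 CPM. The highest DHT-treated aorta was just under the lowest untreated orchiectomized one, and the control range reached below it. Between orchiectomized mice with and without DHT the log2 difference was -0.31 (SE 0.11, edgeR adjusted P = 0.126), and against control mice it was -0.34 (SE 0.11, edgeR adjusted P = 0.284). Relative to the endothelial markers described below for *Edn1*, the log2 level of *Ece1* was 1.12 ± 0.28 in control, 0.99 ± 0.36 in orchiectomized and 1.09 ± 0.25 in DHT-treated mice (SD, n = 5), with overlap of all groups. Groups did not overlap for 2 of 10 members (*Edn1* and *Ece1*) in the former comparison, where this held for 6.43% of all tested genes. Against control mice it held for 1 member (*Edn1*), where the share among all genes was 3.58%, and between orchiectomized and control mice for 0 members, where it was 1.51%.

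**Figure D1:**
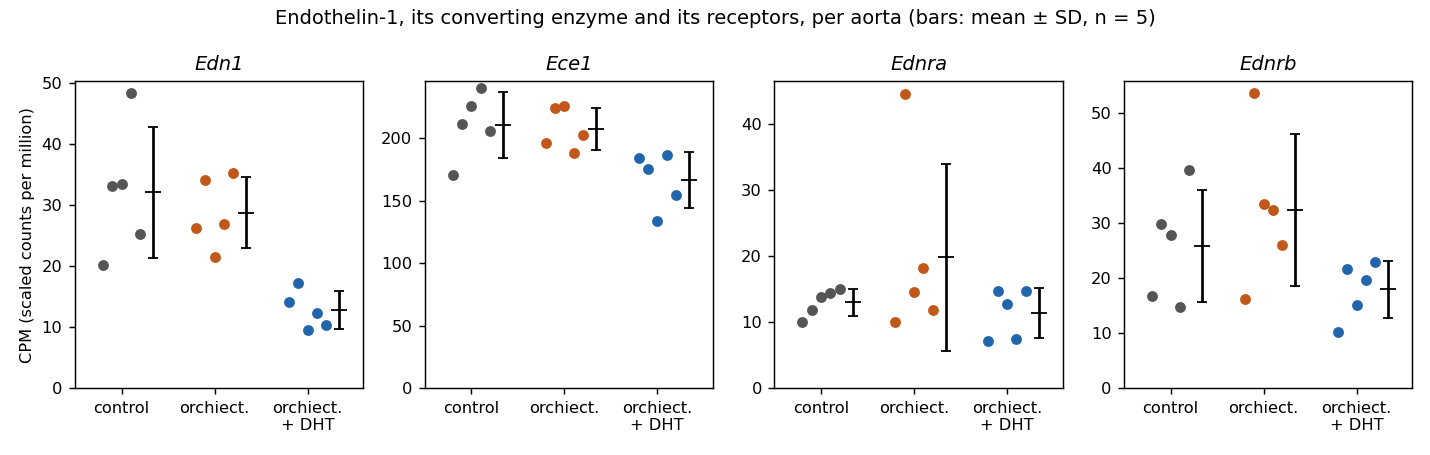
Levels of *Edn1*, *Ece1*, *Ednra* and *Ednrb* in CPM (vertical axis) in each aorta of the control, orchiectomized and DHT-treated orchiectomized groups (horizontal axis), with 1 point per library and bars for the mean ± SD (n = 5). The 5 DHT-treated values of *Edn1*, between 9.49 and 17.3 CPM, lie below all values of the other groups, and 1 orchiectomized library, replicate 2, lies far above the rest for *Ednra*.

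Both endothelin receptors were lowest on average with DHT, but neither passed the threshold in any comparison. For *Ednra*, control aortas had 10.1, 11.8, 13.9, 14.4 and 15.1 CPM, and orchiectomized aortas 10.0, 44.6, 14.6, 18.3 and 11.8 CPM. The DHT-treated aortas had 7.18, 14.8, 12.8, 7.53 and 14.7 CPM. The 3 groups overlapped, and orchiectomized replicate 2 was the highest library. The log2 difference of DHT-treated from untreated orchiectomized mice was -0.80 (SE 0.36, edgeR adjusted P = 0.212), and it was -0.26 (SE 0.24) without that library. Between orchiectomized and control mice the log2 difference was 0.61 (SE 0.36, edgeR adjusted P = 0.494), and without that library 0.066.

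For *Ednrb*, the control values were 16.8, 29.97, 27.8, 14.9 and 39.7 CPM and the orchiectomized values were 16.3, 53.7, 33.6, 32.5 and 26.1 CPM. With DHT they were 10.3, 21.8, 15.3, 19.6 and 23.1 CPM. Again the groups overlapped and orchiectomized replicate 2 was the highest library. The log2 difference between orchiectomized mice given DHT and those without it was -0.85 (SE 0.32, edgeR adjusted P = 0.142), or -0.58 (SE 0.31) without that library. Between orchiectomized and control mice it was 0.33 (SE 0.32, edgeR adjusted P = 0.703), with a range from 0.072 without that library to 0.54 without control replicate 5.

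The balance of the receptors was examined as the log2 ratio of *Ednra* to *Ednrb* in each library, which does not depend on library scaling. Its mean was -0.88 ± 0.54 in control, -0.81 ± 0.37 in orchiectomized and -0.65 ± 0.41 in DHT-treated mice (SD, n = 5). The differences were 0.075 for orchiectomized minus control, 0.16 for DHT-treated minus untreated orchiectomized and 0.24 for DHT-treated minus control mice. None passed in exact two-sided permutation tests (P = 0.786, 0.524 and 0.444). Without control replicate 2, control replicate 5 or orchiectomized replicate 2 the first of these differences changed sign, to -0.031, -0.047 and -0.061, and without the last of these libraries the second difference was 0.30.

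*Adra1a* had the largest difference of the 10 genes between orchiectomized and control mice. It was measured at 44.0, 31.8, 52.1, 20.3 and 55.7 CPM in control aortas and at 13.5, 11.3, 18.4, 25.5 and 19.2 CPM in orchiectomized aortas. The DHT-treated aortas had 16.4, 17.7, 20.9, 60.2 and 35.9 CPM. Of the 5 orchiectomized values, 4 lay below the lowest control value, and replicate 4 lay above it, so the groups overlapped. The log2 difference between orchiectomized and control mice was -1.21 (SE 0.37), with an unadjusted P of 0.00516 and an adjusted P of 0.288 by edgeR. At an unadjusted P under 0.01, the threshold of the study, it was the 1 member that passed, against 3.22% of all tested genes, while *Edn1* was the 1 member that passed with DHT against no DHT (9.72% of all genes) and with DHT against control (3.53%). At an adjusted P under 0.05, edgeR called 0 of the 10 members and 0% of all genes, while 1692 genes had an unadjusted P under 0.05. DESeq2 called 131 of all tested genes and 0 members, with an adjusted P of 0.0740 for *Adra1a*, and over all alternatives and left-out libraries this value reached 0.607.

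*Adra1a* was measured in DHT-treated aortas at 30.2 ± 18.5 CPM, between 17.6 ± 5.53 CPM in untreated orchiectomized and 40.8 ± 14.7 CPM in control mice (SD, n = 5). The values with DHT were spread over the range of both other groups. The log2 difference of DHT-treated from untreated orchiectomized mice was 0.77 (SE 0.37, edgeR adjusted P = 0.244), with a range from 0.38 without DHT-treated replicate 4, the highest library, to 0.98 without orchiectomized replicate 4. Against control mice the log2 difference was -0.43 (SE 0.36, edgeR adjusted P = 0.656), with a range from -0.85 without DHT-treated replicate 4 to -0.28 without DHT-treated replicate 1.

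Brown fat markers varied with *Adra1a* across the libraries. The summed level of the 3 markers (*Ucp1*, *Cidea* and *Elovl3*) ranged from 951 to 4107 CPM in control, from 820 to 1829 CPM in orchiectomized and from 1308 to 3952 CPM in DHT-treated mice, and none of the 3 was called in any comparison. The Pearson correlation of *Adra1a* with the mean of these markers on the log2 scale was 0.80 over the 15 libraries, and with 6 adipocyte markers 0.74 (0.75 for both without orchiectomized replicate 2). Relative to the brown fat markers within each library, *Adra1a* had a mean log2 ratio of -3.82 ± 0.50 in control, -4.05 ± 0.59 in orchiectomized and -4.30 ± 0.36 in DHT-treated mice (SD, n = 5). Relative to the 6 adipocyte markers it was at -3.11 ± 0.10 in control, -3.80 ± 0.41 in orchiectomized and -3.37 ± 0.68 in DHT-treated mice, a wider gap between control (-3.25 to -3.01) and orchiectomized mice (-4.31 to -3.20). All ranges overlapped, and the part of fat around the aorta in the *Adra1a* difference was not tested.

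*Adra1d*, the subtype with the highest level of the 3 per length, had 68.4, 60.0, 38.9, 64.7 and 45.2 CPM in control aortas. The orchiectomized aortas had 92.6, 34.7, 64.5, 60.0 and 82.9 CPM and the DHT-treated aortas had 97.8, 61.4, 84.1, 89.2 and 78.6 CPM. Of the 5 DHT-treated values, 4 exceeded the highest control value, and the lowest library of all was orchiectomized replicate 2. The log2 difference between DHT-treated orchiectomized and control mice was 0.57 (SE 0.23), with an unadjusted P of 0.0245 and an adjusted P of 0.363 by edgeR. Orchiectomized minus control gave 0.27 (SE 0.23, edgeR adjusted P = 0.642), and leaving out orchiectomized replicate 1 or 2 changed this to 0.10 or 0.42. DHT-treated minus untreated orchiectomized gave 0.30 (SE 0.23, edgeR adjusted P = 0.483), and the same omissions changed it to 0.46 or 0.15. In this comparison the voom method of limma with sample quality weights gave 0.034.

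*Adra1d* moved with smooth muscle markers, which summed to 14535 to 20905 CPM in control, 10553 to 21021 CPM in orchiectomized and 20209 to 25033 CPM in DHT-treated mice, with 0 of 7 called in any comparison. The Pearson correlation was 0.83 over the 15 libraries and 0.74 without orchiectomized replicate 2. Other lists had correlations of similar size with *Adra1d*. They were 0.79 for the pericyte and -0.79 for the endothelial markers, or 0.70 and -0.67 without that library. Relative to the smooth muscle markers the mean log2 ratio of *Adra1d* was -5.01 ± 0.27 in control, -4.69 ± 0.15 in orchiectomized and -4.83 ± 0.25 in DHT-treated mice (SD, n = 5), with overlapping ranges.

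*Adra1b* was the lowest of the α1 subtypes per length in control mice. Its control values lay close together, at 5.80, 5.53, 5.53, 5.52 and 5.66 CPM, while orchiectomized aortas had 7.00, 10.9, 7.78, 5.71 and 5.78 CPM. With DHT it was at 4.96, 5.13, 6.67, 5.06 and 5.38 CPM. Orchiectomized replicate 2 was the highest library, and the groups overlapped. The log2 difference between orchiectomized and control mice was 0.40 (SE 0.18, edgeR adjusted P = 0.396), or 0.21 without that library. Between orchiectomized mice given DHT and those without it it was -0.45 (SE 0.18, edgeR adjusted P = 0.159), or -0.26 without it.

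Taken per length, *Adra1d* made up 81.4 ± 7.25% of the summed α1 receptor level in control mice, 88.2 ± 5.06% in orchiectomized mice and 89.6 ± 3.40% in DHT-treated mice (SD, n = 5). The share of *Adra1a* was 13.8 ± 6.58%, 5.36 ± 1.86% and 7.04 ± 3.60% in the same order. *Adra1b* made up the rest, with 4.76 ± 0.75%, 6.46 ± 4.38% and 3.41 ± 0.73%. Without orchiectomized replicate 2 the shares in the orchiectomized mice were 90.2 ± 2.73% for *Adra1d*, 5.28 ± 2.14% for *Adra1a* and 4.55 ± 1.06% for *Adra1b* (SD, n = 4). *Adra1d* was the predominant subtype in every aorta, with a lowest share of 72.9%.

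**Figure D2:**
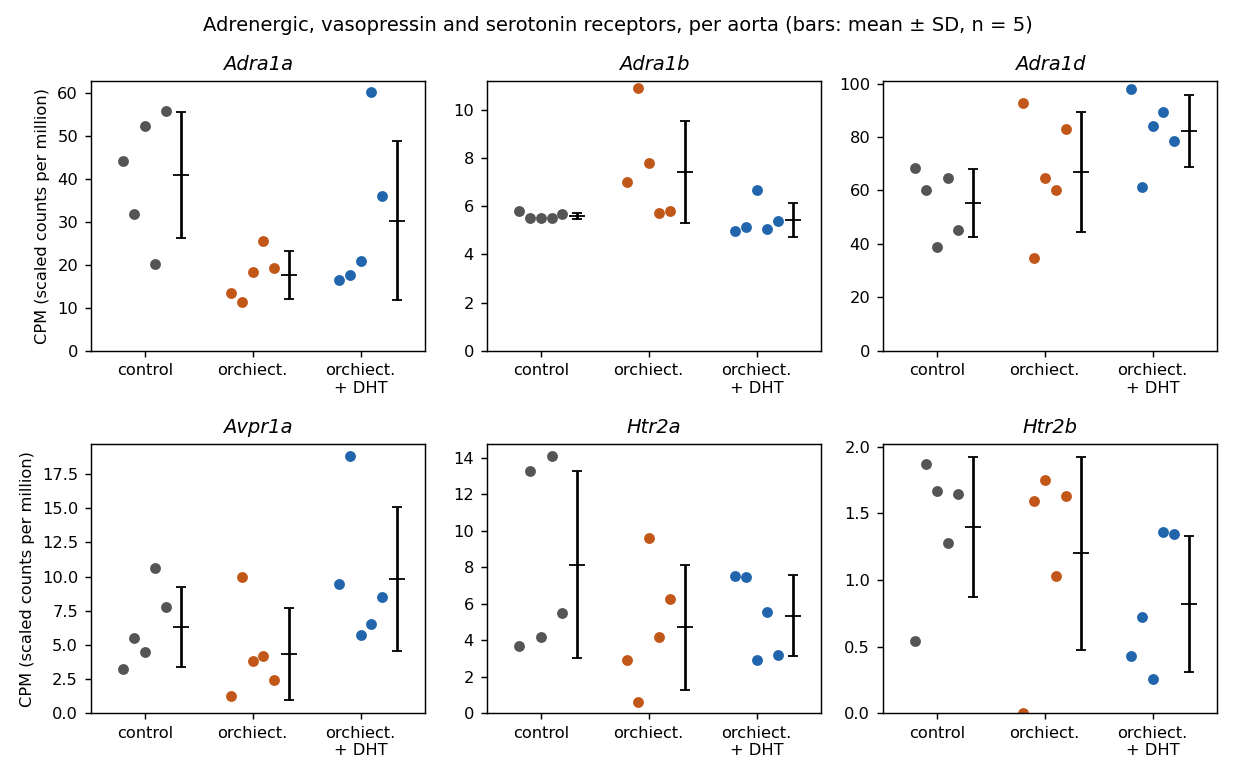
Levels of the 3 α1-adrenergic receptors, the vasopressin receptor and the 2 serotonin receptors in CPM (vertical axes, each with its own scale) in each aorta of the 3 groups (horizontal axis), with 1 point per library and bars for the mean ± SD (n = 5). *Adra1a* has 4 of 5 orchiectomized values below the control range, and the groups overlap in all 6 panels.

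*Avpr1a* was low in every group and varied between mice. Control aortas had 3.26, 5.53, 4.48, 10.6 and 7.76 CPM, orchiectomized aortas 1.29, 10.0, 3.85, 4.19 and 2.44 CPM, and DHT-treated aortas 9.49, 18.8, 5.77, 6.54 and 8.48 CPM. Every DHT-treated value was above every untreated orchiectomized value except that of replicate 2. The log2 difference between these groups was 1.17 (SE 0.48, edgeR adjusted P = 0.173). It was 1.74 (edgeR adjusted P = 0.0512) without orchiectomized replicate 2 and 0.80 without DHT-treated replicate 2, the highest library. The voom method of limma with sample quality weights gave 1.92 and an adjusted P of 0.0248, the 1 alternative that called this gene. Orchiectomized minus control was -0.54 (SE 0.48), from -1.10 without orchiectomized replicate 2 to -0.27 without control replicate 4, and DHT-treated minus control was 0.63 (SE 0.47), from 0.26 without DHT-treated replicate 2 to 0.90 without control replicate 4. The edgeR adjusted P values of these comparisons with all libraries were 0.666 and 0.618. Of the marker lists, the 4 cardiac muscle markers had the highest Pearson correlation with *Avpr1a*, 0.61 over the 15 libraries and also without orchiectomized replicate 2. They summed to 51.8 to 1020 CPM in control, 41.0 to 5529 CPM in orchiectomized and 119 to 704 CPM in DHT-treated mice, with 0 of 4 called and none at 0 in all libraries of a group, and their part in the *Avpr1a* differences was not tested.

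Of the serotonin receptors, *Htr2a* was low and *Htr2b* was near the lower end of what could be measured. *Htr2a* had 3.71, 13.3, 4.17, 14.1 and 5.48 CPM in control, 2.91, 0.619, 9.62, 4.19 and 6.27 CPM in orchiectomized and 7.53, 7.48, 2.95, 5.55 and 3.21 CPM in DHT-treated aortas. Control replicates 2 and 4 were the highest libraries and orchiectomized replicate 2 the lowest, with overlap of all groups. Its log2 differences were -0.79 (SE 0.56) for orchiectomized minus control, 0.18 (SE 0.56) for DHT-treated minus untreated orchiectomized and -0.61 (SE 0.56) for DHT-treated minus control, and none passed the threshold. Leaving out 1 library moved the first of these from -1.23 (without orchiectomized replicate 3) to -0.50 (without control replicate 4). The second changed sign, to -0.085, without orchiectomized replicate 2 and was 0.63 without orchiectomized replicate 3, and the last was -0.31 without control replicate 4. *Htr2b* had 0 to 20 reads per library, at most 1.87 CPM. Its log2 differences were -0.20 (SE 0.60), -0.56 (SE 0.63) and -0.76 (SE 0.63) in the order given for *Htr2a*, and none passed the threshold. Without orchiectomized replicate 1 the first 2 of these were 0.076 and -0.84, and the first was -0.41 without control replicate 1 and the second -0.33 without DHT-treated replicate 3. It had 0 reads in orchiectomized replicate 1, which allows up to 0.323 CPM (3 reads, counting error only).

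**Figure D3:**
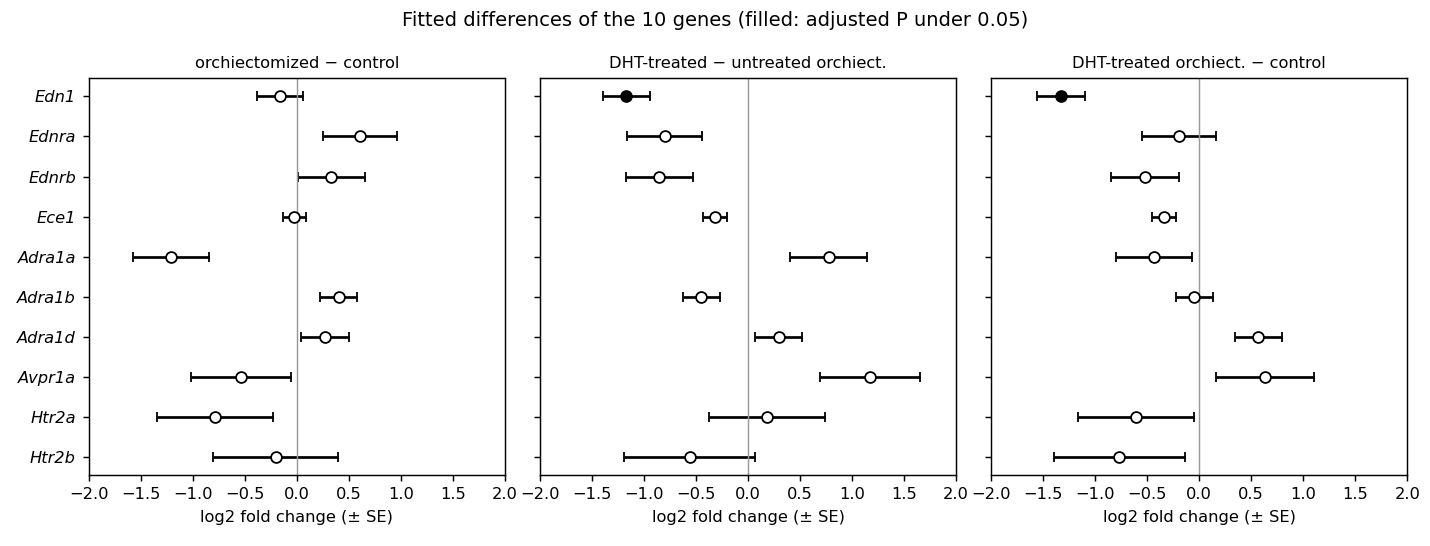
Fitted log2 fold changes (horizontal axes) of the 10 genes (vertical axis) from edgeR in the comparisons of orchiectomized minus control, DHT-treated minus untreated orchiectomized and DHT-treated orchiectomized minus control, with bars for the SE. Filled points passed an adjusted P under 0.05, which only *Edn1* did, at -1.17 and -1.33.

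Taking the 10 genes as a list, 6 were lower and 4 higher in orchiectomized than in control mice, with a median log2 difference of -0.091 against 0.037 over all tested genes, of which 56.8% were higher. With DHT compared with untreated orchiectomized mice, 6 were lower and 4 higher, with a median of -0.38 against -0.022, and 46.7% of all genes were higher. With DHT compared with control mice, 8 were lower and 2 higher, with a median of -0.39 against -0.0029, and 49.5% of all genes were higher.

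Of 8 endothelial markers, 3 were called lower with DHT than in untreated orchiectomized mice and 0 in comparison with control mice. The summed level of the markers was 821 to 1224 CPM in control, 914 to 1458 CPM in orchiectomized and 681 to 894 CPM in DHT-treated mice, so that the DHT-treated range lay below the untreated orchiectomized one and overlapped the control one. No marker was at 0 in all libraries of a group. *Pecam1*, *Tek* and *Vwf* fell with DHT compared with untreated orchiectomized mice, by 0.53, 0.89 and 0.82 on the log2 scale (edgeR adjusted P = 0.0323, 0.0153 and 0.0437). The other markers did not pass in this comparison, with log2 differences of -0.30 for *Cdh5*, -0.44 for *Tie1*, -0.37 for *Emcn*, -0.12 for *Egfl7* and 0.0018 for *Kdr*. Against control mice, *Pecam1*, *Tek* and *Vwf* had log2 differences of -0.47, -0.76 and -0.75 with DHT (edgeR adjusted P = 0.170, 0.0908 and 0.206). Of the 8 markers, 7 were lower and 1 higher than in control mice. The mesothelial markers, which line the outer surface of organs, showed a wider gap, with 33.4 to 92.0 CPM in control, 44.8 to 374 CPM in orchiectomized and 8.33 to 23.1 CPM in DHT-treated mice. Of these markers, 5 of 5 were called lower with DHT than in untreated orchiectomized mice and 2 of 5 lower than in control mice. Of 6 fibroblast markers, 2 and 1 were called lower, with summed levels of 2663 to 3939, 2786 to 4134 and 1862 to 2992 CPM. T cell markers (3 of 4) and B cell markers (3 of 3) were called lower with DHT than in untreated orchiectomized mice. Their summed levels were 2.81 to 10.8 and 2.25 to 4.29 CPM in control mice. They were 4.31 to 42.2 and 3.77 to 95.4 CPM in untreated orchiectomized and 1.37 to 4.86 and 1.28 to 7.03 CPM in DHT-treated mice. The same numbers of these markers, 3 of 4 and 3 of 3, were higher in orchiectomized than in control mice at an unadjusted P under 0.01 by edgeR, and 0 were called. Of 4 skeletal muscle markers, 2 were called higher with DHT than in untreated orchiectomized mice. By edgeR, 0 markers of the pericyte, Schwann cell, sympathetic neuron, adipocyte, macrophage, cardiac muscle and adrenal cortex lists were called in any comparison. Over the 15 libraries *Edn1* had a Pearson correlation of 0.53 with the endothelial, 0.76 with the mesothelial and 0.74 with the fibroblast marker mean.

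Within each library, *Edn1* was also expressed relative to the endothelial markers, as log2 of its CPM plus 0.5 minus the mean of the same quantity over the 8 genes. The ratio was -1.63 ± 0.56 in control, -1.86 ± 0.29 in orchiectomized and -2.59 ± 0.41 in DHT-treated mice (SD, n = 5). With DHT it was lower by a log2 difference of -0.73 than in untreated orchiectomized mice (exact two-sided permutation P = 0.0159) and of -0.96 than in control mice (exact permutation P = 0.00794, the smallest that 5 against 5 mice allow). Over the 9 ratio tests the adjusted value of both exact permutation tests was 0.0714, so neither passed after adjustment. The summed CPM of the markers in place of their mean gave differences of -0.69 and -0.89, with an adjusted value of 0.0357 for both in the exact permutation tests, and leaving out DHT-treated replicate 2 gave -0.86 and -1.08 with the same adjusted value. Without other single libraries the adjusted value of these exact permutation tests reached 0.196 against untreated orchiectomized and 0.179 against control mice, and with the replicate block, where 5 pairs allow no unadjusted P below 0.0625 and the test cannot pass, it was 0.281 for both. Relative to the mesothelial markers, *Edn1* was at 1.70 ± 0.95 in control, 1.00 ± 0.78 in orchiectomized and 2.39 ± 0.29 in DHT-treated mice, so that the mean was highest with DHT. The DHT-treated range, 2.00 to 2.72, lay above the untreated orchiectomized one, -0.22 to 1.85, and the control range, 0.56 to 2.59, overlapped both. Relative to the fibroblast markers *Edn1* was at -3.46 ± 0.31 in control, -3.71 ± 0.57 in orchiectomized and -4.08 ± 0.31 in DHT-treated mice (log2, SD, n = 5), with the lowest mean with DHT and overlap of the groups. These ratios are descriptions without a test, and the parts of the T cell and B cell markers in the *Edn1* difference were not tested.

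The levels of *Ednra* and *Ednrb* ran against the smooth muscle markers, with Pearson correlations of -0.78 and -0.79 over the 15 libraries, and of -0.53 and -0.70 without orchiectomized replicate 2. Other lists had correlations of similar size. With the pericyte markers they were -0.80 and -0.72, with the endothelial markers 0.71 and 0.77, with the B cell markers 0.73 and 0.70 and with the macrophage markers 0.62 and 0.73. Without orchiectomized replicate 2 the endothelial values were 0.40 and 0.65 and the macrophage values 0.80 and 0.75. Relative to the endothelial markers, *Ednrb* was at -1.97 ± 0.49 in control, -1.76 ± 0.43 in orchiectomized and -2.13 ± 0.34 in DHT-treated mice (log2, SD, n = 5), with overlap of all groups and without a test. Relative to the 7 smooth muscle markers, the log2 level of *Ednra* was -7.04 ± 0.38 in control, -6.56 ± 1.26 in orchiectomized and -7.67 ± 0.56 in DHT-treated mice (SD, n = 5). The differences were 0.48 for orchiectomized minus control, -1.11 for DHT-treated minus untreated orchiectomized and -0.63 for DHT-treated minus control (exact permutation P = 0.556, 0.0952 and 0.0873), and none was larger than the spread between mice. Without orchiectomized replicate 2 the first pair of differences was -0.039 and -0.59.

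**Figure D4:**
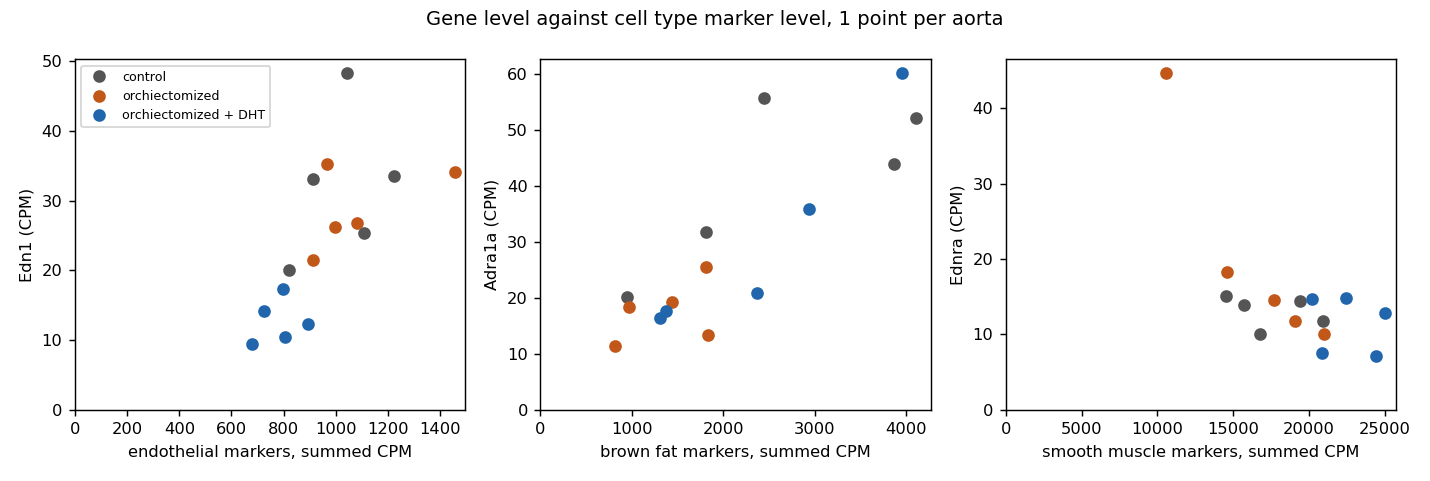
Level of *Edn1* against endothelial, *Adra1a* against brown fat and *Ednra* against smooth muscle markers (horizontal axes, summed CPM of the marker list; vertical axes, CPM of the gene), with 1 point per aorta colored by group. DHT-treated aortas have the 5 lowest levels of *Edn1*, at 681 to 894 CPM of endothelial markers, a range that overlaps the control one, and orchiectomized replicate 2 lies alone at 44.6 CPM of *Ednra* and 10553 CPM of smooth muscle markers.

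The genes most like each member over the 15 libraries were sought among all tested genes by the Pearson correlation of log2 CPM, which describes libraries that share groups and composition. For *Edn1* these were *Bmp6* (0.93), *Pecam1* (0.92) and *Thbs1* (0.92), of which *Pecam1* is one of the endothelial markers above. For *Ece1* they were *Ptprb* (0.93), *Wnt2* (0.93) and *Coch* (0.90), and *Ece1* and *Edn1* had a correlation of 0.85 with each other, or 0.67 within groups. *Adra1a* was most like *Adora1* (0.97), *Cntnap1* (0.96) and *Ppargc1b* (0.96), the last a coactivator of mitochondrial genes. *Adra1d* was most like *Lmod1* (0.89), which is one of the smooth muscle markers, *Heyl* (0.88) and *Sost* (0.88).

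The other genes sorted in the same way. *Ednra* was most like *Unc93b1* (0.97), *Plac8* (0.96) and *Nuak2* (0.95), and *Ednrb* was most like *Inpp4b* (0.93), *Spdl1* (0.93) and *Pon1* (0.91). The receptors *Ednra* and *Ednrb* had a correlation of 0.76 with each other, and *Adra1d* one of -0.76 with *Ednra* and of -0.77 with *Ednrb*. Without orchiectomized replicate 2 these were 0.64, -0.63 and -0.68, and the 3 genes most like *Ednra* had correlations of 0.88 to 0.92 with it. *Htr2a* was most like *Myocd* (0.96), a coactivator of smooth muscle genes, *Kif5b* (0.96) and *Utrn* (0.96). *Adra1b* was most like *Slc2a12* (0.91), *Rcc2* (0.90) and *Galnt6* (0.90), *Avpr1a* was most like *Stc1* (0.81), *Dpep1* (0.81) and *Zc3h3* (0.80), and *Htr2b* was most like *Lilr4b* (0.86), *Flt4* (0.82) and *St3gal1* (0.81). The values of *Adra1b* were 0.71, 0.73 and 0.74 without orchiectomized replicate 2.

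Genes around these receptors were examined in 6 lists. Of the endothelin ligands and their converting and degrading enzymes, 4 of 6 were tested, and in both comparisons with DHT the 1 called gene was *Edn1* itself. *Edn3* had 2 to 70 reads per library. *Edn2*, another ligand, had 374 reads in orchiectomized replicate 2 and 0 to 2 reads in each of the other 14 libraries. Neprilysin (*Mme*), a protease that degrades endothelin, was the gene of this list with the highest level per length that did not pass (5.05 CPM per kb), apart from *Ece1*, with 78.4 ± 31.0 CPM in control, 48.8 ± 15.8 CPM in orchiectomized and 47.7 ± 26.5 CPM in DHT-treated mice (SD, n = 5).

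Among the 8 tested genes of other adrenergic, serotonin and vasopressin or oxytocin receptors, 0 were called in any of the comparisons by edgeR. *Adrb3*, the β3-adrenergic receptor of fat cells, had the highest level per length of those that did not pass (40.7 CPM per kb), at 177 ± 73.1 CPM in control, 97.4 ± 27.2 CPM in orchiectomized and 138 ± 62.9 CPM in DHT-treated mice (SD, n = 5).

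Of 16 tested receptors for other vasoconstrictors, 1 was called by edgeR, lower with DHT than in untreated orchiectomized mice. In this comparison 4.72% of all tested genes were called. The called receptor was *S1pr2*, a receptor for sphingosine-1-phosphate, with 22.7 ± 4.45 CPM in untreated orchiectomized and 12.5 ± 3.11 CPM in DHT-treated mice (SD, n = 5). All DHT-treated values of *S1pr2*, 9.72 to 17.8 CPM, were below the untreated orchiectomized values, 18.2 to 28.5 CPM, and the log2 fold change was -0.86 (SE 0.19, edgeR adjusted P = 0.0205). This call was kept in 11 of 15 fits without 1 library and in 6 of 8 other alternatives. It was lost without orchiectomized replicate 4 or DHT-treated replicate 3, 4 or 5, at edgeR adjusted P values up to 0.0663. Against control mice the log2 difference of *S1pr2* was -0.72 (SE 0.19, edgeR adjusted P = 0.139), a difference that DESeq2 called at an adjusted P of 0.0234. *P2rx1*, an ATP-gated channel of smooth muscle, was the gene of this list with the highest level per length that did not pass (38.9 CPM per kb), at 114 ± 37.1, 90.9 ± 31.9 and 102 ± 31.3 CPM in control, orchiectomized and DHT-treated mice.

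Of 28 tested genes of Gq, calcium and RhoA signaling, 1 was called by edgeR, lower with DHT than in untreated orchiectomized mice. Of all tested genes, 4.72% were called in this comparison. The called gene was *Itpr3*, an inositol trisphosphate receptor that releases calcium from stores. It fell with DHT from 27.6 ± 9.74 CPM in untreated orchiectomized to 14.9 ± 2.70 CPM (SD, n = 5), a log2 fold change of -0.89 (SE 0.22, edgeR adjusted P = 0.0318), in a call kept in 8 of 15 fits without 1 library and in 5 of 8 other alternatives, with -0.50 and an adjusted P of 0.150 by voom. The *Itpr3* call was lost without orchiectomized replicate 2, 3 or 4 or DHT-treated replicate 1, 3, 4 or 5, at edgeR adjusted P values up to 0.0877. The levels without and with DHT, 17.7 to 42.7 and 11.2 to 17.2 CPM, did not overlap. *Ppp1r14a*, an inhibitor of myosin phosphatase and the gene of this list with the highest level per length that did not pass (195 CPM per kb over all libraries), had 234 ± 25.3, 247 ± 91.2 and 317 ± 55.9 CPM in control, orchiectomized and DHT-treated mice.

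Of 11 tested genes of receptor desensitization, 0 were called by edgeR. *Grk3*, a receptor kinase, had an unadjusted P of 0.00243 and a log2 difference of -0.85 (SE 0.23, edgeR adjusted P = 0.261) between orchiectomized and control mice, with 53.4 ± 3.84 against 96.4 ± 30.7 CPM, and DESeq2 called it at an adjusted P of 0.0424. *Rgs16*, which speeds the shutdown of G proteins, had a log2 difference of -1.52 (SE 0.51, edgeR adjusted P = 0.101) between orchiectomized mice given DHT and those without it, or -0.78 without orchiectomized replicate 2. *Rgs5*, of the same family, had the highest level per length of those that did not pass (515 CPM per kb), at 2374 ± 646, 2218 ± 783 and 2431 ± 655 CPM in control, orchiectomized and DHT-treated mice.

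Of 10 tested genes for the supply and removal of catecholamines and serotonin, 1 was called higher and 1 lower with DHT than without it in orchiectomized mice. Over all tested genes, 0.921% were called higher and 3.80% lower in this comparison. *Slc22a3*, a transporter that takes up catecholamines outside neurons, rose from 22.7 ± 2.16 to 38.5 ± 4.84 CPM (SD, n = 5), a log2 fold change of 0.77 (SE 0.14, edgeR adjusted P = 0.0116). All DHT-treated values of *Slc22a3*, 32.3 to 44.0 CPM, were above the highest untreated one, 25.2 CPM, and the call held in all 15 fits without 1 library and all 8 other alternatives. Control mice had 36.1 ± 7.56 CPM, and the log2 difference between orchiectomized and control mice was -0.67 (SE 0.14, edgeR adjusted P = 0.176), a difference that DESeq2 called at an adjusted P of 0.00314. *Slc6a4*, the serotonin transporter, fell from 3.04 ± 1.24 to 0.951 ± 0.495 CPM, a log2 fold change of -1.68 (SE 0.39, edgeR adjusted P = 0.0281), in a call kept in 8 of 15 fits without 1 library and in 5 of 7 other alternatives. Its values were low, 1.79 to 4.54 CPM without and 0.428 to 1.76 CPM with DHT. At median depth, 10 reads correspond to 0.906 CPM. The *Slc6a4* call was lost without orchiectomized replicate 2, 3 or 4 or DHT-treated replicate 1, 2, 3 or 4, at edgeR adjusted P values up to 0.0778. *Maob*, a monoamine oxidase, was the gene of this list with the highest level per length that did not pass an unadjusted P under 0.01 (32.3 CPM per kb), at 91.0 ± 21.3, 78.0 ± 10.5 and 101 ± 15.9 CPM.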

How the data were processed

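RNA of whole aortas kept in RNAlater was enriched for poly(A) and made into RNA-Seq libraries. For each library and gene symbol the authors deposited unnormalized read counts, as whole numbers. Their processing notes name STAR, Cufflinks, DESeq2 and the build mm10, while the counting program, its strand setting and the annotation are not given in the sources used here. Reads assigned to no gene (6.26% to 14.4%) or to several genes (1.34% to 1.97%) were left out. Without a known strand setting, reads of a gene and of an antisense transcript cannot be told apart.

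Groups and replicate numbers came from the labels. Testing was done with edgeR 4.0.16 in R 4.3.3, using filterByExpr (minimum count 10, minimum total count 15), TMM normalization and 1 quasi-likelihood model with the 3 groups over 15 libraries, without covariates. All 10 members were among the 14121 genes tested. Calls used a Benjamini-Hochberg adjusted P under 0.05 over all tested genes, and an unadjusted P under 0.01 was an alternative. The biological coefficient of variation was 0.297. The procedure was tested on simulated data. Ratios used a pseudocount of 0.5 CPM, exact two-sided permutation tests and adjustment over 9 tests. Levels per kilobase used the union of exons of each gene in GENCODE annotation of GRCm38, which may differ from the annotation behind the counts.

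Named were the 10 members, genes of the 6 pathway lists with an unadjusted P under 0.01 (at most 8 per comparison), 1 gene per list with the highest level per length that did not pass, the 3 genes most like each member, and markers where their list is described. A few pathway genes named by it are not reported here. Members and lists were chosen with earlier results of these data known. The ratios of *Adra1a*, *Adra1d*, *Ece1* and *Ednrb* to markers and of *Edn1* to mesothelial and fibroblast markers were added once the data had been seen. So were the α1 shares and the correlations without orchiectomized replicate 2. Cell types were described by 15 marker lists. Alternatives were DESeq2 1.42.0, size factors by RLE, a filter of 1 count in any library or of 10 counts in each library, only the groups compared, the replicate number as a block, a robust fit, voom of limma 3.58.1, another pseudocount (0.1), summed markers and leaving out each library. Figures were drawn with Python 3.11.15 and matplotlib 3.10.9.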

Additional observations from a re-analysis of the deposited data

Results flagged for a closer look

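In 3 of 39 groups of values tested, 1 library lay farther from the other 4 than Dixon's test at 95% allows, a rate that chance gives in about 1 of 20 groups. *Ednra* was at 44.6 CPM in orchiectomized replicate 2, where the other 4 orchiectomized aortas had 10.0 to 18.3 CPM. *Avpr1a* was at 18.8 CPM in DHT-treated replicate 2, where the others had 5.77 to 9.49 CPM. *Adra1b* was at 6.67 CPM in DHT-treated replicate 3, where the others had 4.96 to 5.38 CPM.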

How the results depend on the processing

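Of 684 recomputed values for the 10 genes in the 3 comparisons, 668 kept their direction and their side of the threshold. The call of *Edn1* for DHT-treated against untreated orchiectomized mice was kept under all 8 alternatives and all 15 fits without 1 library. Against control mice, the number of members called ranged from 0 to 1 in the fits without 1 library, and it was 0 with the replicate block (*Edn1* adjusted P = 0.0726). The labels do not say whether same-numbered samples were handled together. Of 15 pairs of same-numbered libraries, 4 had a correlation of deviations over 0.1 (range -0.48 to 0.48), which cannot decide this. With the replicate block the genes called were 2, 392 and 9 in place of 0, 666 and 37. DESeq2 called 131, 1285 and 229 genes, a fit of only the groups compared 0, 168 and 61, and voom 1, 526 and 156. Voom called 2 members for DHT-treated against untreated orchiectomized mice, and an unadjusted P under 0.01 gave 1 member for orchiectomized against control mice. Without 1 library, *Edn1* relative to endothelial markers ranged from -0.86 to -0.62 and from -1.08 to -0.76 for DHT-treated against untreated orchiectomized and control mice, and with summed markers the differences were -0.69 and -0.89. *Ednra* relative to *Ednrb* ranged from -0.061 to 0.28, and relative to smooth muscle markers from -0.039 to 0.75, for orchiectomized against control mice. Reversed values were those of *Edn1* (voom 0.097; -0.29 to 0.037 without 1 library), *Ece1* (-0.091 to 0.028 without 1 library) and *Htr2b* (-0.41 to 0.076) for orchiectomized against control, *Htr2a* (-0.085 to 0.63) for DHT-treated against untreated orchiectomized, and *Slc22a3* (-0.00049 to 0.17) for DHT-treated against control mice. For *Ednra* relative to *Ednrb* they were -0.031, -0.047 and -0.061, and for *Ednra* relative to smooth muscle markers the value was -0.039, all for orchiectomized against control mice. The causes were not tested. Requiring at least 10 counts in every library left *Htr2a* and *Htr2b* untested. *Htr2b* had 0 to 20 reads per library.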
